A study of Caenorhabditis elegans with 2 samples.

Results

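Binding of DPL-1 was examined at 10 genes of the DNA damage checkpoint, atm-1, atl-1, clk-2, hus-1, mrt-2, mre-11, rad-50, parp-1, chk-1 and cep-1. They were taken by name from the 19985 protein-coding genes of the WBcel235 annotation, and all 10 names were found. The assay was chromatin immunoprecipitation followed by sequencing (ChIP-seq), in which DNA bound by a tagged protein is recovered and mapped. The material was whole worms (Caenorhabditis elegans) at the young adult stage, both sexes together, of 1 transgenic strain, YL390, with the genotype unc119(ed3)III and the insertion vrIs48. The insertion carries DPL-1 fused to GFP and FLAG under the pie-1 promoter, followed by the 3′ UTR of dpl-1, and unc-119(+) as the wild-type copy of the mutated gene. Since pie-1 is a germline gene, the tagged protein was made under a germline promoter, and its level in each tissue was not measured. The labels name dpl-1 in the antibody field and eGFP-dpl-1 in the description, so the antigen recognised is not certain. There was 1 group of 2 samples, numbered as biological replicates 1 and 2, with no strain or condition to compare with, so the results describe where peaks lay and how they ranked.

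DPL-1 is the worm DP protein. It forms a dimer with the E2F-type protein EFL-1 and acts in the DREAM complex, which holds down genes of the cell cycle and of the germline. E2F-DP dimers recognise a GC-rich sequence, and the LIN-54 subunit of DREAM binds a second sequence, the cell cycle genes homology region (CHR). The DNA damage checkpoint stops the cell cycle, and in the worm germline it also starts repair or cell death, when DNA is broken or replication stalls. Sensors such as the MRE-11 and RAD-50 nuclease complex, the clamp of HUS-1, MRT-2 and HPR-9, and PARP-1 recognise the damage. The apical kinases ATM-1 and ATL-1 then act through the kinase CHK-1 and the p53-like factor CEP-1.

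Each peak carries a signal value given by the authors' peak caller against a control, which can rank peaks only within 1 list. The 4 lists used, on the assembly ce11, were those of replicate 1, of replicate 2 and of the pooled reads (30000 peaks each), and the optimal list of 1546 peaks that the irreproducible discovery rate (IDR) procedure kept. Rank 1 is the highest signal of a list. The optimal list was the same as the 1546 strongest pooled peaks, whose signals ran from 23.7 to 738.5 with a median of 42.2, so a place in it does not by itself show a peak in both replicates. Counts of reads are not part of the lists, so depth is unknown and a signal comes without an error. A gene is called bound here when an optimal IDR peak had its summit between 1000 bp upstream and 500 bp downstream of 1 of its transcript starts.

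DPL-1 was bound at 6 of the 10 checkpoint genes, with 1 optimal IDR peak each. They were chk-1, atm-1, mre-11, mrt-2, cep-1 and atl-1, in order of signal. Over all protein-coding genes 9.22% were bound. The 10 genes were chosen with earlier results of these data known, so their count is not independent of them. Signals of the 6 genes ran from 33.4 to 92.95 with a median of 47.5. This was close to the median of 45.9 for the strongest peak of all 1842 bound genes. The other genes, hus-1, rad-50, parp-1 and clk-2, had only weaker peaks. In the pooled list all 10 genes had a summit in a promoter window, 16 summits in total, but 50.4% of all protein-coding genes did so too. The strongest pooled peak of the 10 genes had a median rank of 933, against 8862 for all 10063 genes with such a peak.

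**Figure D1:**
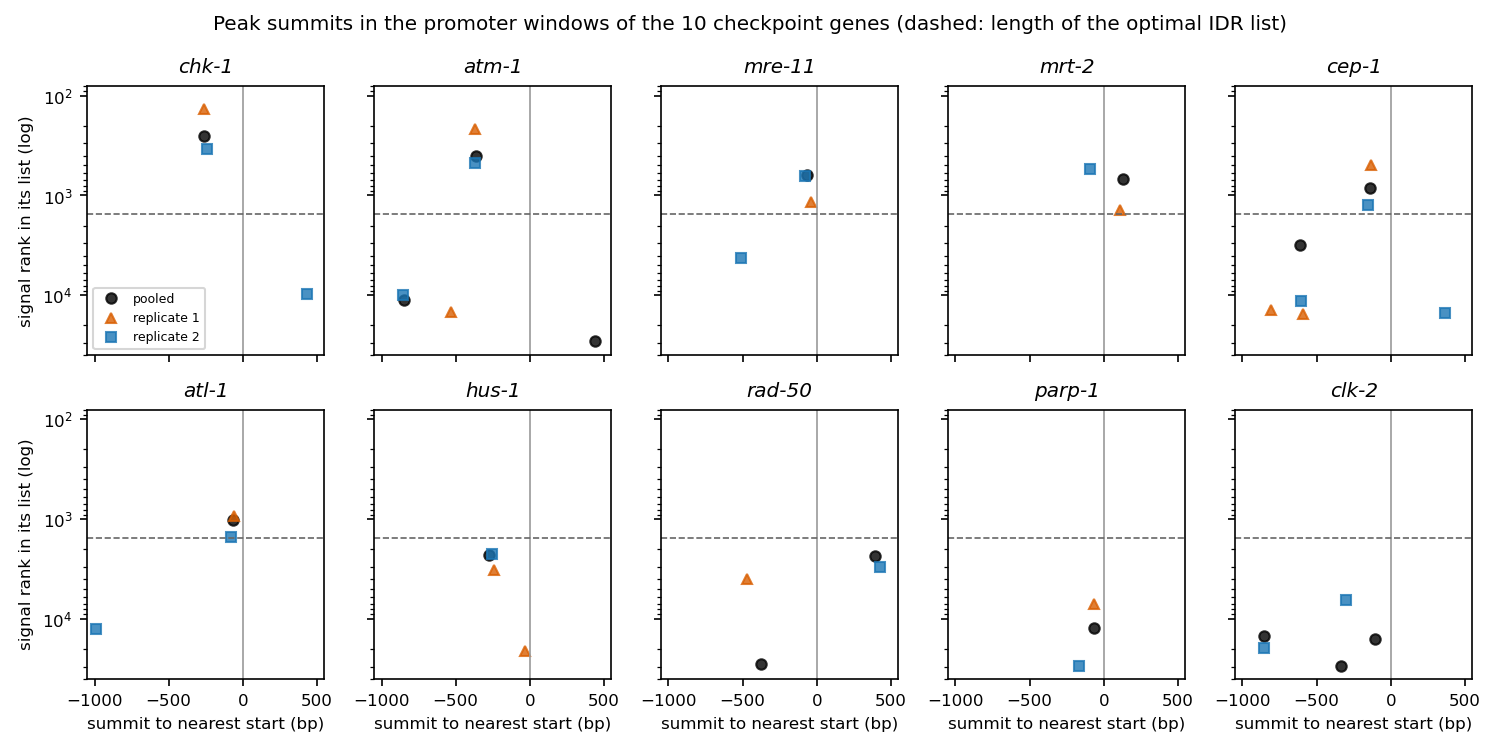
Each panel is a checkpoint gene, ordered by pooled signal. The horizontal axis is the distance in bp from a summit to the nearest transcript start of the gene (negative is upstream), the vertical axis is the signal rank of the peak in its own list (log scale, strongest at the top), and symbols mark the pooled, replicate 1 and replicate 2 lists. The dashed line is rank 1546: the best peaks of chk-1, atm-1, mre-11, mrt-2, cep-1 and atl-1 lie above it in all 3 lists, and those of the other 4 genes lie below it.

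The effector kinase gene chk-1 had the strongest peak of the set. CHK-1 is the kinase that ATL-1 activates to delay division and keep replication forks stable. The pooled signal was 92.95 (rank 252), and the peak had rank 136 in replicate 1, with a signal of 39.3, and rank 346 in replicate 2, with a signal of 54.02. It was therefore among the strongest in both replicates. Of all 1842 bound genes, 81.2% had a lower signal. The summit was 259 bp upstream of the start of chk-1 at chrV:3759469 in the pooled list and in replicate 1, and 241 bp upstream in replicate 2. No other protein-coding gene shared the peak, whose interval of 129 bp was narrower than the median of 290 bp. In replicate 2 a weak further summit (rank 9715) lay inside the coding sequence.

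The sequence under this summit is shown because it holds an E2F-type and a CHR-type match side by side. The E2F-type sequence searched was TTCCCGC, with TTCGCGC also allowed, and with TTGCCGC as well as TTGGCGC as further forms. The CHR-type sequence was TTTGAA, with TTCGAA as its other form. Each was searched on either strand. Capitals mark the matches, and the stretch is chrV:3759628-3759828 of ce11 on the minus strand, 5′ to 3′ along the gene, with the summit in its middle. The CHR-type match is centred 42.5 bp and the E2F-type match 50 bp downstream of the summit, and 1 base separates them.
chk-1: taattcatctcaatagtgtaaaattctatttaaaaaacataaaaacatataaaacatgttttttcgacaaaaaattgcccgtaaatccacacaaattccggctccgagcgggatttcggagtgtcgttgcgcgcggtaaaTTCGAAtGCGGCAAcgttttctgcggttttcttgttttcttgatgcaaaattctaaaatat

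The kinase gene atl-1 had the weakest of the 6 optimal IDR peaks. ATL-1 is the worm ATR, the kinase that responds to single-stranded DNA at stalled forks. Its pooled signal was 33.4 (rank 1019), with 13.2 in replicate 1 (rank 929) and 16.0 in replicate 2 (rank 1522). The replicate 2 rank was thus close to the end of the 1546 strongest peaks. The summit was 66 bp upstream of the atl-1 start at chrV:9645595 and 198 bp upstream of hcp-2, a kinetochore gene that runs the other way. The intergenic gap is 263 bp, and a peak between both starts cannot be assigned to 1 of them. A weak further summit in an intron of hcp-2, 993 bp upstream of atl-1, was listed in replicate 2 only (rank 12520).

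Of the nuclease genes, mre-11 was bound. MRE-11 trims broken DNA ends and, with RAD-50, holds them. The pooled signal of its peak was 48.9 (rank 630), with 11.6 in replicate 1 (rank 1174) and 33.9 in replicate 2 (rank 634). This is 1 of the 2 bound genes that ranked lower in replicate 1. The summit was 67 bp upstream of the start at chrV:10736868 and 181 bp upstream of wdr-5.3, a WD-repeat gene on the opposite strand that starts 247 bp from the mre-11 gene. A further summit over the coding sequence of wdr-5.3 appeared in replicate 2 only (rank 4229).

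For both of these shared promoters the part of the summit region without annotated UTR is shown, since both hold an E2F-type and a CHR-type match at wider spacing than at chk-1. Capitals mark the matches as above. The atl-1 stretch is chrV:9645596-9645761 and the mre-11 stretch chrV:10736869-10737035 of ce11, each on the minus strand and ending at the base before the gene's first transcribed base. At atl-1 the CHR-type match is centred 4.5 bp from the summit, and 36 bases separate it from the E2F-type match. At mre-11 the E2F-type match is 52 bp upstream and the CHR-type match 55.5 bp downstream of the summit.
atl-1: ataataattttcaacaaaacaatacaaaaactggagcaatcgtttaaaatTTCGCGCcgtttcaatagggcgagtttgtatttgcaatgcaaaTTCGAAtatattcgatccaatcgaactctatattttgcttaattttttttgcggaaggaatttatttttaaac
mre-11: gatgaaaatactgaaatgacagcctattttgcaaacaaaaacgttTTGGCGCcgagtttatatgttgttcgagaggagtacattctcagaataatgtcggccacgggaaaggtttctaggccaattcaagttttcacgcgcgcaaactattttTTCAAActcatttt

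In the clamp, mrt-2 was bound. MRT-2 is the worm Rad1, a subunit of the ring that is loaded at damage and helps to activate the ATR kinase. Its pooled signal was 46.1 (rank 681), with 10.4 in replicate 1 (rank 1406) and 36.8 in replicate 2 (rank 549). The difference in rank between the replicates was the widest of the 6 genes. The mrt-2 summit alone lay downstream of its nearest start, by 130 bp from the start at chrIII:11746766, within a 5′ UTR. The replicate 2 summit was 94 bp upstream of the second start at chrIII:11747038, and the replicate summits were 67 bp apart, against a median of 28 bp over all 1375 optimal IDR peaks matched in both replicates. No other protein-coding gene shared the peak, and the nearest protein-coding gene upstream is 9138 bp away.

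No E2F-type match lay within 100 bp of the mrt-2 summit. Instead a pair of CHR-type matches on opposite strands adjoin each other, centred 8.5 and 14.5 bp upstream of the summit. They are shown in capitals within chrIII:11746870-11746899 of ce11, plus strand.
mrt-2: atcggaggtTTCAAATTTGAAtttccgcgc

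Like all 6 bound genes, these had their summit matched within 100 bp in both replicates, and each peak was among the 1546 strongest of both. Of all optimal IDR peaks 88.9% were matched in both, and 904 (58.5%) were among the strongest of both. Ranks were higher in replicate 1 for chk-1, atm-1, cep-1 and atl-1, and higher in replicate 2 for mre-11 and mrt-2. Over all matched peaks 47.7% ranked higher in replicate 1. The replicate summits of the 6 genes were 6 bp (atm-1) to 67 bp (mrt-2) apart.

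**Figure D2:**
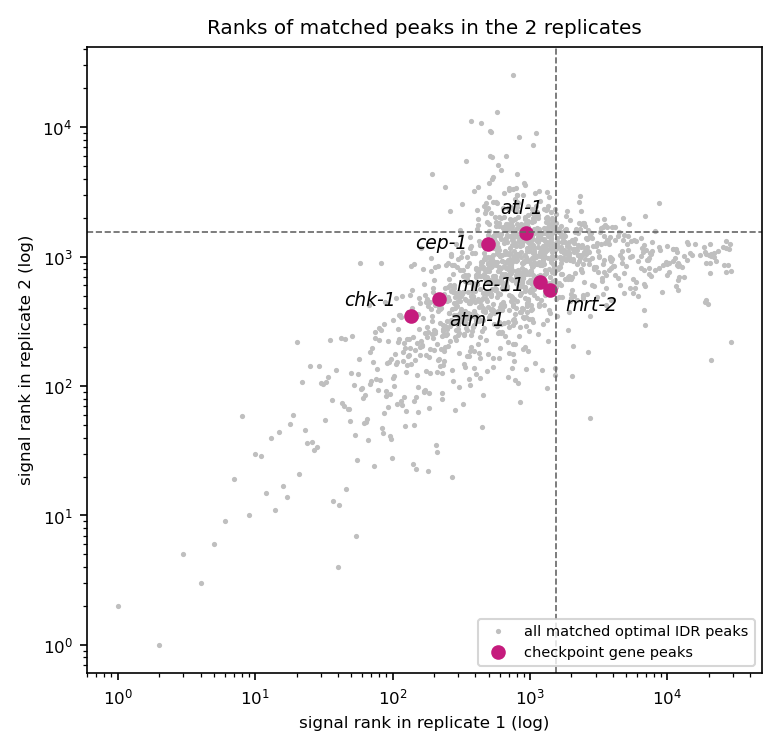
Grey points are the 1375 optimal IDR peaks with a summit within 100 bp in both replicate lists, and labelled points are the peaks of the 6 bound checkpoint genes. Axes are signal ranks in replicate 1 and replicate 2 (log scales, rank 1 strongest), and dashed lines mark rank 1546: all 6 labelled points lie inside both lines, with atl-1 at 1522 in replicate 2 and mrt-2 at 1406 in replicate 1 nearest to them.

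On chromosome I, the kinase gene atm-1 had the second strongest peak of the set. ATM-1 is the worm ATM, the kinase that responds to double-strand breaks. The pooled signal was 70.9 (rank 400), with 31.8 in replicate 1 (rank 218) and 41.6 in replicate 2 (rank 470). The summit, at position 183002, was 362 bp upstream of the start at 183364. It was nearer to the divergent gene F56C11.3, whose start was 230 bp away, so that atm-1 is no longer bound if a peak is given only to the nearest start. Weak further summits lay within F56C11.3 (pooled rank 11149, and rank 10014 in replicate 2) and near an internal start of atm-1 at 192695 (pooled rank 28537, and rank 14705 in replicate 1).

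The p53-like gene cep-1, on the same chromosome, had a pooled signal of 38.4 (rank 847), with 19.6 in replicate 1 (rank 497) and 19.2 in replicate 2 (rank 1240). CEP-1 turns on cell death genes in damaged germ cells. The summit, at position 8324148, lay almost midway in the gap of 298 bp between cep-1 and the divergent gene F52B5.3, 138 bp from the start of the first and 161 bp from that of the second. A weaker pooled summit over the coding sequence of F52B5.3 (rank 3159) had counterparts in replicate 1 (rank 15526) and replicate 2 (rank 11295). Replicate 1 alone also had a summit 806 bp upstream of cep-1 (rank 13958), and replicate 2 alone had 1 in a 5′ UTR of cep-1, 363 bp downstream of a start (rank 14990).

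Of the other 4 genes, hus-1 and rad-50 had pooled peaks somewhat below the end of the optimal list, and parp-1 and clk-2 far weaker ones. At hus-1, which encodes the HUS-1 subunit of the clamp, the pooled signal was 17.3 (rank 2281), 0.728 times the lowest signal of the optimal list. Its summit ranked 3250 in replicate 1 and 2242 in replicate 2, 244 and 253 bp upstream of the start. The pooled summit was 277 bp from hus-1 and 274 bp from msh-2, the divergent mismatch repair gene, in a gap of 550 bp. Replicate 1 alone had a further weak summit 34 bp upstream (rank 21105).

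At rad-50 the pooled signal was 16.8 (rank 2362), 0.708 times the lowest optimal signal. The peak lay in an intron, 396 bp downstream of the first start at chrV:12245646. In replicate 2 a summit was 427 bp downstream of that start (rank 2998). The replicate 1 summit (rank 3941) was 469 bp upstream of the second start at chrV:12246616, also in the intron, as was a very weak pooled summit (rank 28557). No peak was listed in the gap of 601 bp to the divergent gene slfl-5. The pooled summit of rank 2362 was also in the window of slfl-5, 998 bp upstream of the slfl-5 start. Thus mre-11 and rad-50, whose proteins form 1 complex, differed in where the peak lay and in whether it reached the optimal list.

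The weakest peaks were those of parp-1 and clk-2. PARP-1 attaches poly(ADP-ribose) chains near DNA breaks. Its pooled summit had a signal of 7.22 (rank 12220) and lay in an intron, 63 bp upstream of an internal start, with rank 7050 in replicate 1 and, for a summit 165 bp upstream of that start, 29857 in replicate 2. No summit was listed in the window of the first of its 5 starts. The same summits were in the window of Y71F9AL.1, on the opposite strand.

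CLK-2 is the worm Tel2, a cofactor that keeps the ATM and ATR kinases stable. Its window held pooled summits with signals of up to 6.60 (ranks 14719, 15723 and 29854), and in replicate 2 summits at ranks 6468 and 19524. It was the only one of the 10 genes with no summit in the replicate 1 list. All of these summits lay over cux-7, the gene next upstream on the same strand, which ends 103 bp before clk-2. Many worm genes are transcribed in operons from the promoter of the first gene, but no operon annotation was used here. The start of cux-7 had an optimal IDR peak (signal 51.3, rank 583, with rank 1203 in replicate 1 and 465 in replicate 2). Its summit, at chrIII:7520886, was 41 bp upstream of cux-7, 123 bp upstream of C07H6.2 and 577 bp upstream of lig-4, a ligase gene of end joining, and 2362 bp from the start of clk-2.

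On WBcel235, whose sequence is that of ce11, chromosome I holds atm-1 (183364 to 208384, plus strand), parp-1 (2907725 to 2925529, minus), hus-1 (3698102 to 3699300, plus) and cep-1 (8324286 to 8328859, plus). Chromosome III holds clk-2 (7515222 to 7518524, minus) and mrt-2 (11746766 to 11750175, plus). Chromosome V holds chk-1 (3757153 to 3759469, minus), atl-1 (9634849 to 9645595, minus), mre-11 (10733925 to 10736868, minus) and rad-50 (12245646 to 12251246, plus). The atm-1 peak spanned 182857 to 183146 and the cep-1 peak 8324003 to 8324292.

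By the rule used, a bound gene has its summit between 1000 bp upstream and 500 bp downstream of a start. Closeness to a start is therefore not a result. The summit was upstream of the nearest start of its gene in 5 of 6 genes, all in intergenic sequence, by 66 to 362 bp. The upstream and intergenic shares of all optimal IDR promoter peaks were not computed. In 4 of 6 bound genes the peak also lay in the window of 1 divergent neighbour, while 43.1% of the 1308 optimal IDR promoter peaks lay in windows of 2 or more genes. By chromosome, 3 of 4 genes on V were bound (5.67% of all protein-coding genes there), 2 of 4 on I (15.1%) and 1 of 2 on III (16.1%). In the replicate lists, 9 of the 10 genes had a summit in replicate 1 (50.4% of all genes) and all 10 in replicate 2 (49.3%).

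Both DREAM-type sequences were found at 4 of the 6 bound genes. An E2F-type match lay within 100 bp of the summit at chk-1, atm-1, mre-11 and atl-1, and none at mrt-2 and cep-1. It was present at 36.7% of all optimal IDR peaks and at 8.62% of 10070 pooled promoter summits at least 1000 bp from any of them. A CHR-type match lay within 100 bp at all 6, against 63.9% of all optimal IDR peaks and 54.5% of the distant promoter summits, so a match to this short sequence is common. Within 50 bp of the summit the E2F-type count was 2 of 6, near the 30.4% of all optimal IDR peaks, and the CHR-type count was 4 of 6, against 40.8%. With 1 more T required before the E2F-type sequence, 2 of 6 had a match within 100 bp, against 22.0% of all optimal IDR peaks. The E2F-type match at chk-1, centred 50 bp from the summit and without the further T, was in neither of these narrower counts. Both sequences were present within 100 bp at 26.2% of all optimal IDR peaks, with a median of 11 bases between them. At atm-1 9 bases separated them. Of the 405 peaks with both, 78 (19.3%) had them 1 base apart or less, as at chk-1.

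At the 4 genes without an optimal IDR peak, no E2F-type match lay within 100 bp of the strongest pooled summit. A CHR-type match did so at rad-50 (2 matches), parp-1 and clk-2, and none at hus-1. Of the distant promoter summits 8.62% had an E2F-type match and 54.5% a CHR-type match, so the lack of E2F-type matches at these 4 genes is common among weak promoter peaks. The nearest E2F-type match at clk-2 was 129 bp from that summit. These matches describe letters in the reference and are not measured sites.

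**Figure D3:**
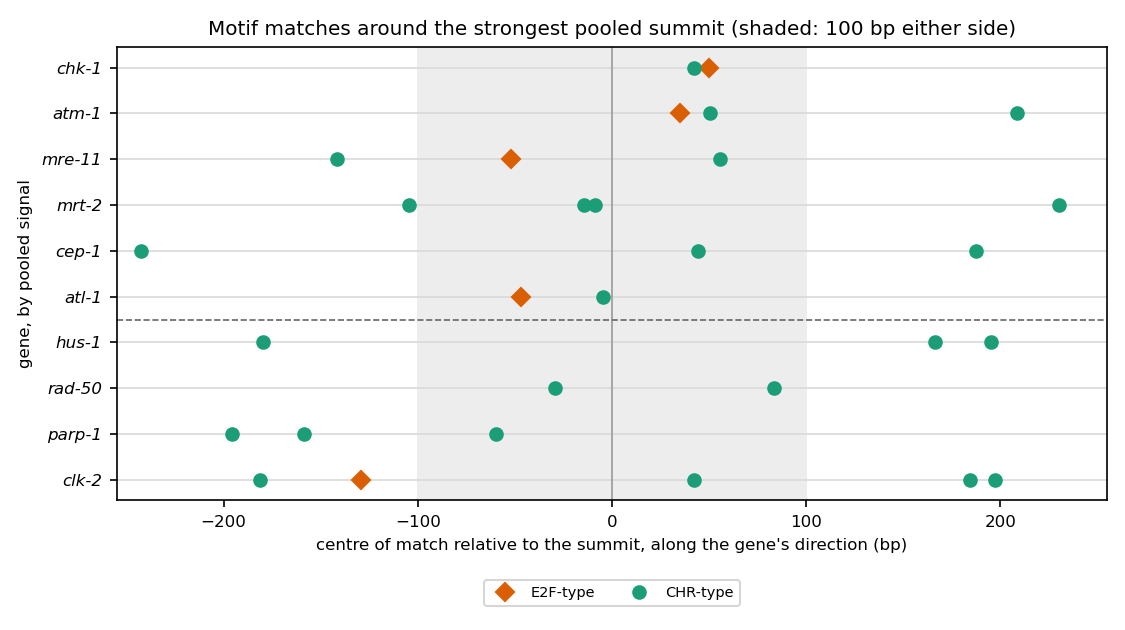
Each row is a checkpoint gene, ordered by pooled signal, with the 6 bound genes above the dashed line. Points are the centres of E2F-type (diamonds) and CHR-type (circles) matches relative to the strongest pooled summit, in bp along the direction of the gene, and the shaded band is 100 bp to either side. E2F-type matches fall in the band at chk-1, atm-1, mre-11 and atl-1, while clk-2 has 1 outside it.

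For the 2 strongest checkpoint peaks, the genes of most similar rank were looked up. Nearest to chk-1 by the sum of rank differences in both replicates, among all optimal IDR promoter peaks, was a peak shared by klp-19, a spindle kinesin gene, and slc-36.1 (ranks 149 and 343). That of the egg activation gene egg-3 came next (116 and 340). For atm-1 they were cin-4 (211 and 498), saps-1 (219 and 435) and the ribosomal protein gene rps-28 (178 and 469). The rps-28 signal of 76.44 was also that of Y41D4B.4. Likeness in rank rests on 2 replicate ranks.

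Among 44 other genes of the pathway, listed by role, 20 were bound (45.5%, against 9.22% of all protein-coding genes). The list was drawn up with earlier results of these data known, so this share is not independent of them. Many of the listed genes lie on chromosome III, where 16.1% of all protein-coding genes were bound. Genes that work next to the clamp were bound at 4 of 5. The clamp loader gene hpr-17 had a signal of 115.2 (rank 166), and hpr-9, the clamp subunit that joins HUS-1 and MRT-2, had 28.0 (rank 1282), with rank 618 in replicate 1 and 4643 in replicate 2. The genes of the single-strand binding protein RPA, which recruits ATR, had 126 (rpa-1) and 32.5 (rpa-2). The rpa-2 peak ranked 3896 in replicate 1 and 977 in replicate 2, and mus-101 had a pooled rank of 5394. Hence of the clamp genes hpr-9 and mrt-2 had an optimal IDR peak and hus-1 did not. The peak of hpr-17 was shared with F32A11.1, that of hpr-9 with lron-10, and F18A1.7 shared the peak of rpa-1.

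Kinase mediators held the strongest peaks of the pathway. The claspin gene clsp-1, whose product links ATR to CHK1 in vertebrates, had a signal of 190 (rank 48), and tim-1, the worm Timeless, had 157 (rank 81). Both exceeded every 1 of the 10 checkpoint genes. The clsp-1 peak was shared with the translation factor gene eef-2, and the tim-1 peak with another protein-coding gene. The phosphatase gene pph-4.1 had 26.0, in a peak that was also shared with another protein-coding gene. That peak ranked 973 in replicate 1 and 1888 in replicate 2. The meiotic kinase gene chk-2 was just short of the optimal list at 22.1 (rank 1682).

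Of the cell cycle genes on which the checkpoint acts, 3 of 6 were bound. They were wee-1.3, an inhibitory kinase of CDK-1 (150, rank 96), cdk-1 itself (2 peaks, the stronger at 49.5, 593 bp upstream and shared with iff-1) and the CDK inhibitor gene cki-2 (47.4). The phosphatase gene cdc-25.1 had a pooled signal of 18.1 (rank 2158), and cdc-25.2 and cki-1 had no pooled peak in a window.

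Break repair genes were bound at 9 of 14. The signals were 97.2 at fcd-2, 83.0 at exo-1, 66.4 at cku-80, 64.7 at brc-1 and 51.3 at lig-4, whose peak is the one at cux-7. Below these came polq-1 with 49.4, shared with the kinetochore gene him-10, rad-51 with 41.8, brd-1 with 29.5, shared with K04C2.2, and rad-54.L with 28.0, shared with snx-3. The peak of cku-80 was shared with R07E5.7. At brc-1 and polq-1 no summit of replicate 1 lay within 100 bp, so these rest on replicate 2 and the pooled reads. The brd-1 peak ranked 1889 in replicate 1 and 1088 in replicate 2, and the rad-54.L peak 1054 and 7233. Each of these 2 peaks was thus outside the 1546 strongest of 1 replicate. The resection gene com-1 was just below the end of the list (21.0, rank 1790).

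Genes around CEP-1 and cell death were bound at 1 of 12, namely cbp-1, an acetyltransferase gene (28.3, rank 1255, 825 bp upstream). The cbp-1 peak ranked 2647 in replicate 1 and 1104 in replicate 2. The direct cell death targets of CEP-1, egl-1 and ced-13, had no pooled peak in a window, nor had ced-4 or akt-1, and ced-3 had a rank of 8452. None of the 3 other genes of poly(ADP-ribose) metabolism was bound. These shares were near or below the genome's, but no difference between roles was tested. Of the 20 bound pathway genes 12 were among the strongest of both replicates, close to the 58.5% of all optimal IDR peaks. An E2F-type match lay within 100 bp at 10 of the 20, against 36.7% of all optimal IDR peaks.

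**Figure D4:**
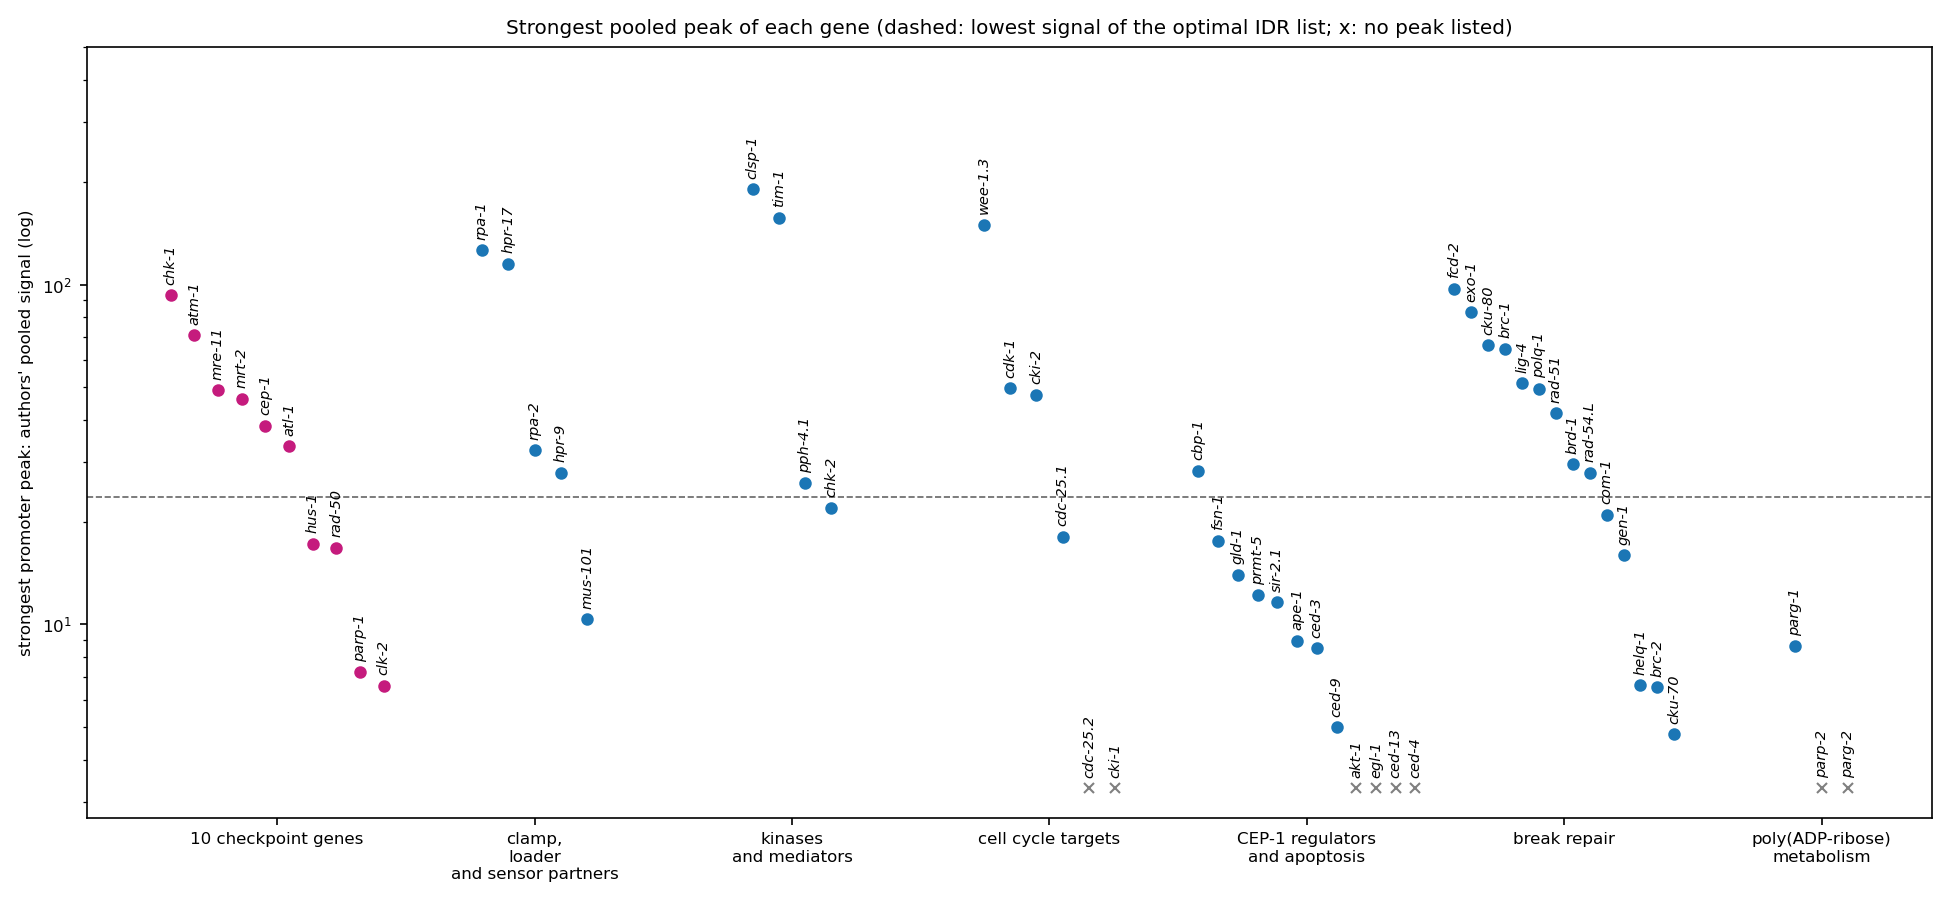
Points are the strongest pooled peak in the promoter windows of each gene, by the authors' signal (log scale), for the 10 checkpoint genes and for 44 other pathway genes by role. The dashed line is the lowest signal of the optimal IDR list, 23.7, and crosses mark genes with no pooled peak listed in a window: clsp-1, tim-1 and wee-1.3 lie highest, and of the CEP-1 and cell death group only cbp-1 lies above the line.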

How the data were processed

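Peak lists from 2 ChIP-seq samples in 1 group were used. Per the labels, fragments of 150 to 350 bp were sequenced. Per the deposited description files, the authors called peaks against a control on each replicate and on both pooled, and derived the optimal IDR list from these. For aligner and peak caller, names were not given in the sources used here, and the control, reads and signal tracks were not analysed here. The deposited signal value ranked peaks within a list. The deposited −log10 q value was the same for every peak of the optimal list and was not used, and the summit offset gave summit positions. The ce10 lists were not used, since no coordinates were converted.

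On chromosomes I, III and V, ce11 peaks ended within the chromosome lengths of WBcel235 (Ensembl release 115 annotation, RefSeq sequence). Distances ran to the nearest start of the gene in question, among 29796 transcript starts of protein-coding genes. Motifs had to lie wholly within 100 bp of a summit, and replicate summits matched within 100 bp. Python 3.11.15 and pandas 2.3.3 were used, and the assignment of peaks was tested on simulated data. With 1 group no test was run, and gene counts stand beside the share of all genes. The genes, the pathway list and the motifs were chosen with earlier results of these data known. Named genes were the 10, those sharing their peaks, bound pathway genes with hpr-9 and hpr-17, and 3 of nearest replicate rank for the 2 strongest. Pathway genes without an optimal IDR peak and the neighbours of pathway genes fell outside this rule and were named after their values were seen.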

Additional observations from a re-analysis of the deposited data

How the results depend on the processing

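The 6 bound genes were the same ones with windows of 500 bp upstream to 250 bp downstream or 2000 to 1000 bp (7.56% and 11.48% of all protein-coding genes). They were also the same with any part of a peak counted (9.53%) and with the first start only (8.87%). The 1546 strongest peaks of 1 replicate gave the same 6, without replicate 1 (8.82%) or without replicate 2 (8.89%). Only atm-1 was lost under the nearest start (5 genes, against 6.4% of all genes). With the 773 strongest peaks cep-1 and atl-1 were lost (4 genes, against 5.12%). When the window of cux-7 was added clk-2 was gained (7 genes), and the share of all genes was not computed for that setting. The E2F-type count fell from 4 to 2 within 50 bp of the summit (30.4% of all optimal IDR peaks) and also to 2 when 1 more T was required (22.0%), and the CHR-type count fell from 6 to 4 within 50 bp (40.8%). The count of other pathway genes went from 20 to 13 with the 773 strongest peaks, while all genes went from 9.22% to 5.12%. With 1 replicate left out, the rank in the list of the other replicate, as a percentile of that list, ran from 0.727 to 1.57 for atm-1, 2.11 to 3.91 for mre-11, 1.83 to 4.69 for mrt-2 and 3.1 to 5.07 for atl-1. For chk-1 it ran from 0.453 to 1.15 and for cep-1 from 1.66 to 4.13. The cause of these shifts was not tested. No paired analysis was possible because there was 1 group. The lists hold no counts, so what depth limits could not be measured.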
